A study of Mus musculus with 4 samples.

Results

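Nuclear receptor genes whose symbol follows the Nr nomenclature were examined across 4 kinds of mouse cell. A gene was included where the single symbol given to a probe set by the platform annotation was Nr, a digit from 0 to 6, a letter and a digit, as in Nr0b1 or Nr2f1. This gave 22 genes, measured by 60 probe sets, of 18193 genes on the arrays. Where a gene had several probe sets, the one brightest on average over the 4 arrays, on the log2 scale, stood for it.

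RNA from each kind of cell was hybridised to 1 Affymetrix array. The ES array carried undifferentiated mouse embryonic stem cells, and the granule array carried cerebellar granule cells taken at postnatal day 6. The Sox1 array carried sorted Sox1 neural stem cells, and how these were derived and sorted is not stated in the labels. The remaining array, called here by its label, HB9-GFP+, carried cells sorted at differentiation day 8 from an ES line whose green fluorescent protein follows HB9, the motor neuron factor encoded by Mnx1. The labels attach 1 culture description to all 4 samples: ES cells of the HB9 line grown on mitomycin C-treated mouse fibroblasts with leukemia inhibitory factor, then, between days 5 and 9, purmorphamine at 0.2 uM and retinoic acid at 0.1 uM together with sonic hedgehog. That span runs past the stated sort day. No mouse strain or genotype beyond the reporter is given in the labels.

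Nuclear receptors are transcription factors with a zinc finger domain that binds DNA and a domain that binds ligand. Many bind the half-site AGGTCA, alone or repeated, and recruit coactivators or corepressors. Some respond to steroids, oxysterols, bile acids or heme, while others are orphans with no settled natural ligand. In ES cells Nr0b1 and Nr5a2 belong to the network around Pou5f1, Nr6a1 is a repressor of Pou5f1 during differentiation, and the COUP transcription factors Nr2f1 and Nr2f2 pattern the developing brain.

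A signal here is a scaled intensity with no unit. The median log2 signal of each array was averaged over the 4 arrays to give a low level, a signal of 78.8, and a gene was called detected at 157.5, which is 1 log2 unit above it. A gene was called higher or lower between 2 arrays where the brighter signal was past detection and at least 4-fold the other, with values under the low level set to it. Folds against a signal under 78.8 are lower bounds, and no fold is given where the dimmer signal lay between 78.8 and 157.5. With 1 array per kind of cell there was no replicate, so no p-value or error could be computed, and each statement compares these arrays only.

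The values on the HB9-labelled array went against its label. On it, all 10 pluripotency markers were detected and 0 of 8 motor neuron markers were, while all 8 fibroblast markers were detected against 2 on the ES array. Mnx1 had a signal of 15.9 there and was undetected on all 4 arrays. All 7 neural stem cell markers were detected on the Sox1 array and 7 of 8 granule neuron markers on the granule array. Of the granule neuron markers, 5 were also detected on the Sox1 array, 3 on the ES array and 2 on the HB9-labelled array. The ES and HB9-labelled arrays each had 3 neural stem cell markers detected, and the granule array 4. On the Sox1 array 7 of 10 pluripotency markers were detected as well, among them Dppa5a at 3928.3, Zfp42 at 593.0, Pou5f1 at 514.3 and Nanog at 324.3, all under their ES signals. The granule array also had all 6 astrocyte and Bergmann glia markers, all 5 measured oligodendrocyte markers, all 5 Purkinje cell and interneuron markers, 6 of 8 fibroblast markers and 4 of 6 microglia and macrophage markers detected. The ratio of 3' to 5' control probe sets ran from 2.29 to 5.08 for actin and from 1.37 to 3.68 for Gapdh, with both maxima on the Sox1 array. Hprt, often used as a reference gene, read 8529.3 on the HB9-labelled array and 3348.8 in granule cells, but 93.0 in Sox1 cells and 90.3 in ES cells, which is undetected.

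The promoters of 4 members are shown as examples of opposite contrasts. Nr0b1 and Nr5a2 were brightest on the ES array or the HB9-labelled array, and Nr2f1 and Nr2f2 on the Sox1 array. Each line gives the 250 bases before the gene's start farthest upstream, 5' to 3' along the gene, from RefSeq's annotation of GRCm38.p6. Capitals mark the half-site AGGTCA in either orientation.
Nr0b1, chrX:86191525-86191774, plus strand: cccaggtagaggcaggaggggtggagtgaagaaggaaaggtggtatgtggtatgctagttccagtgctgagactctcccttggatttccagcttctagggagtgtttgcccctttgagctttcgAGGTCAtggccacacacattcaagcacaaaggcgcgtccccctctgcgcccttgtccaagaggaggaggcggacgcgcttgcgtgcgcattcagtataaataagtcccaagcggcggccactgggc
Nr5a2, chr1:136960449-136960698, minus strand: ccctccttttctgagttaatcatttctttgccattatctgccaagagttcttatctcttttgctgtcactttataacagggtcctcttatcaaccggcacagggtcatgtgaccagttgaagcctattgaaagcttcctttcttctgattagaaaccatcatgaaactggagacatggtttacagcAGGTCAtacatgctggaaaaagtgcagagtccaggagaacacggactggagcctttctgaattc
Nr2f1, chr13:78198874-78199123, minus strand: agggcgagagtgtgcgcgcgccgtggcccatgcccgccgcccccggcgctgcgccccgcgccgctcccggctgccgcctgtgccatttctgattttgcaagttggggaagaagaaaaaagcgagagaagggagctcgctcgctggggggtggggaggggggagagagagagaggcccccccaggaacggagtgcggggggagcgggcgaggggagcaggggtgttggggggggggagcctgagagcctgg
Nr2f2, chr7:70366747-70366996, minus strand: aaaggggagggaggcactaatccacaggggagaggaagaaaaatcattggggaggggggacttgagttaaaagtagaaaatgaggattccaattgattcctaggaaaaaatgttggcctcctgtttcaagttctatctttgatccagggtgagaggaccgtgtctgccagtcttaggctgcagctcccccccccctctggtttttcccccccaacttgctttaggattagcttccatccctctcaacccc

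The half-site occurred once in the Nr0b1 window, beginning 126 bases before the start, and once in the Nr5a2 window, beginning 64 bases before it. The printed windows of Nr2f1 and Nr2f2 held no match. Windows were found for 20 of the 22 genes, and Nr3c1 and Nr5a1 were not among them. Of the 24 windows of these genes, 5 (20.8%) held AGGTCA on either strand, against 4607 (14.0%) of all 32851 windows of 250 bases. The other windows with a match belonged to Nr1d2, Nr1h4 and Nr6a1, the last at its other start.

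Other motifs were searched on both strands. The Nr4a element AAAGGTCA and the Nr5a element TCAAGGTCA, which both contain the half-site, were in 0 of 24 windows, against 1.34% and 0.387% of all windows. The cAMP response element TGACGTCA was in 1 window, that of Nr2e1 (4.17%, against 1.55% of all). The E-box CACGTG was in those of Nr0b2 and Nr1i3 (8.33%, against 6.02% of all). The printed windows differed in CG dinucleotides, with 22 for Nr2f1, 11 for Nr0b1, 2 for Nr5a2 and 1 for Nr2f2, against a median of 6 over all windows. These counts depended on the start, since the window at the other start held 2 for Nr2f1 and 6 for Nr5a2. Such matches describe letters only, and none was tied to a signal.

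Of the 22 members, 13 were detected on at least 1 array (59.1%), against 63.6% of all genes. The same 13 were detected without the HB9-labelled array, against 62.1% of all genes. On the ES array 9 members were detected, on the HB9-labelled array 10, and 11 and 10 on the arrays of Sox1 and granule cells. The shares of all genes detected were 51.8%, 51.3%, 51.5% and 52.3% in the same order. Only 5 members were detected on all 4 arrays, Nr1d2, Nr2c1, Nr2c2, Nr2f6 and Nr4a1, which is 22.7% against 40.6% of all genes.

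**Figure D1:**
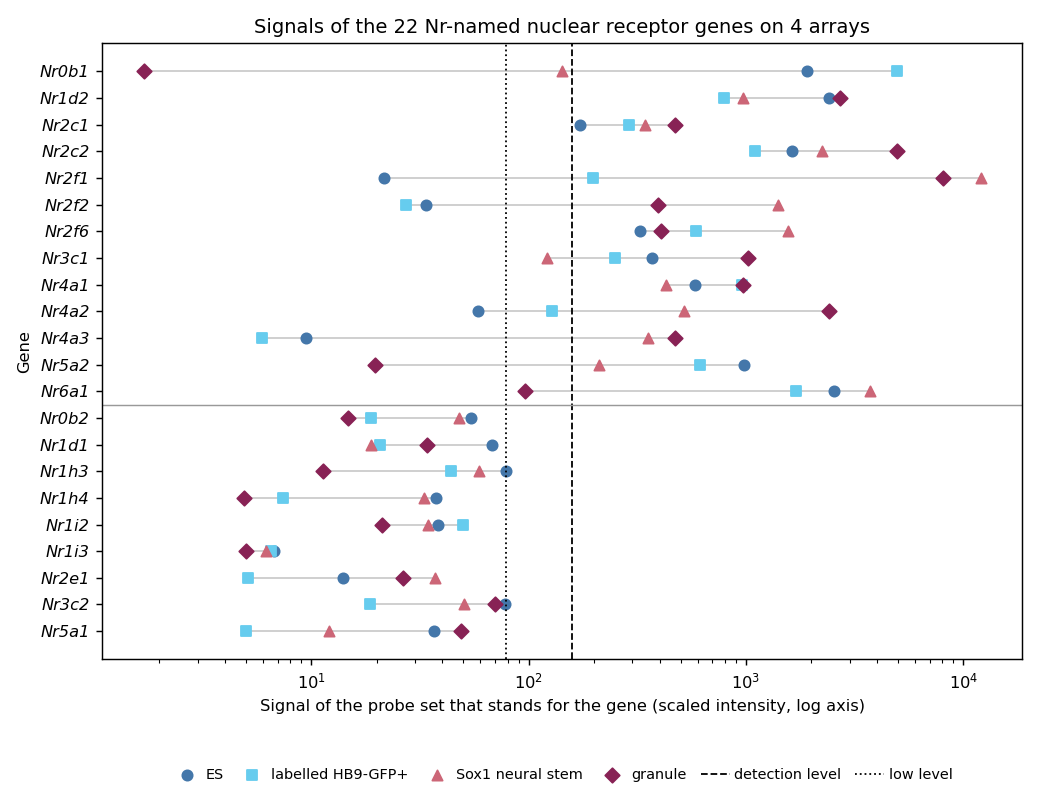
Signals of the 22 genes on a log axis, 1 point per array, with the detection level of 157.5 dashed and the low level of 78.8 dotted. The 13 genes above the grey line reach detection on at least 1 array and the 9 below it reach it on none; Nr2f1 has the widest spread above the low level.

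Between arrays, 10 of the 22 members were called in at least 1 of the 6 comparisons (45.5%), against 19.3% of all genes. Without the HB9-labelled array, 9 members were called in at least 1 of the remaining comparisons (40.9%), against 14.7% of all genes. The gene that dropped out was Nr2c2. The median log2 difference over the 22 members was 0.00 in each of the 6 comparisons, as it was over all genes, since many genes lay at the low level on both arrays. No gene list was tested here, so these shares are descriptions. The comparisons share arrays and are not independent.

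The Sox1 array against the ES array had 5 members higher (22.7%, against 3.59% of all genes) and 2 lower (9.09%, against 3.02%). The higher ones were Nr2f1, Nr2f2, Nr2f6, Nr4a2 and Nr4a3, and the lower ones Nr0b1 and Nr5a2. The granule array against the ES array had 4 higher (18.2%, against 6.83%), Nr2f1, Nr2f2, Nr4a2 and Nr4a3. It had 3 lower (13.6%, against 4.99%), Nr0b1, Nr5a2 and Nr6a1. So Nr2f1, Nr2f2, Nr4a2 and Nr4a3 were higher on both the Sox1 and granule arrays than on the ES array, as 2.21% of all genes were. Nr0b1 and Nr5a2 were lower on both, as 2.37% of all genes were.

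The granule array against the Sox1 array had 2 members higher (9.09%, against 3.66%), Nr3c1 and Nr4a2, and 1 lower (4.55%, against 2.09%), Nr6a1. No member was called between the HB9-labelled array and the ES array, where 1.11% of all genes were higher and 0.813% lower. Over the 10 members detected on either of those arrays, the log2 differences ran from -1.60 for Nr1d2 to 1.37 for Nr0b1. Against the Sox1 array, the HB9-labelled array had 1 member higher (4.55%, against 3.22%), Nr0b1, and 4 lower (18.2%, against 3.97%), Nr2f1, Nr2f2, Nr4a2 and Nr4a3. Against the granule array it had 3 higher (13.6%, against 5.53%), Nr0b1, Nr5a2 and Nr6a1. The 6 lower ones (27.3%, against 7.41%) were Nr2c2, Nr2f1, Nr2f2, Nr3c1, Nr4a2 and Nr4a3.

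**Figure D2:**
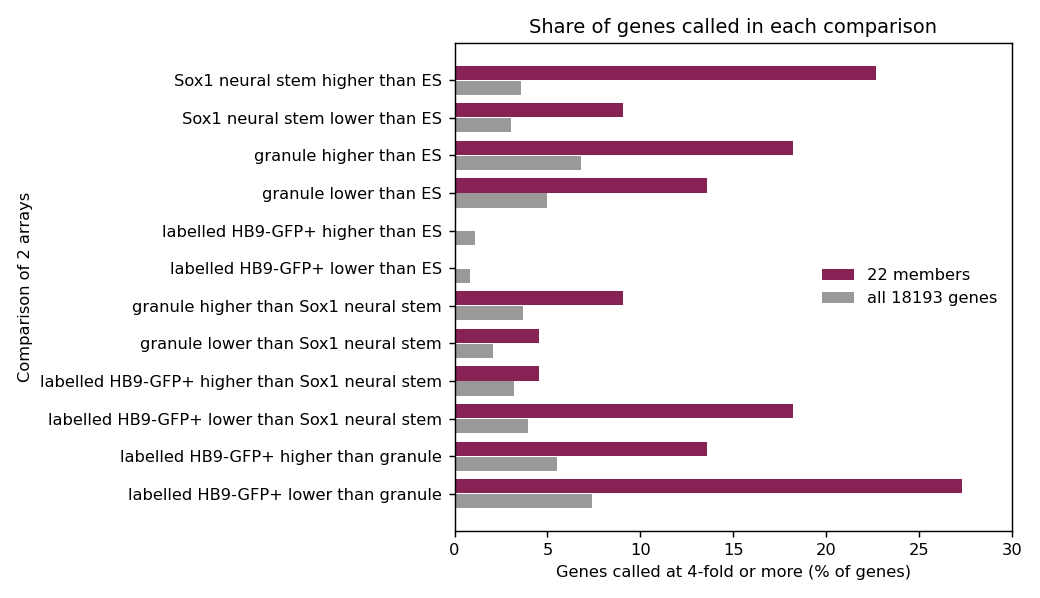
Share of the 22 members (dark bars) and of all 18193 genes (grey bars) called higher or lower in each comparison of 2 arrays, in percent. The members' bar is longest for genes lower on the HB9-labelled array than on the granule array (27.3%) and has no length in either direction against the ES array.

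**Figure D3:**
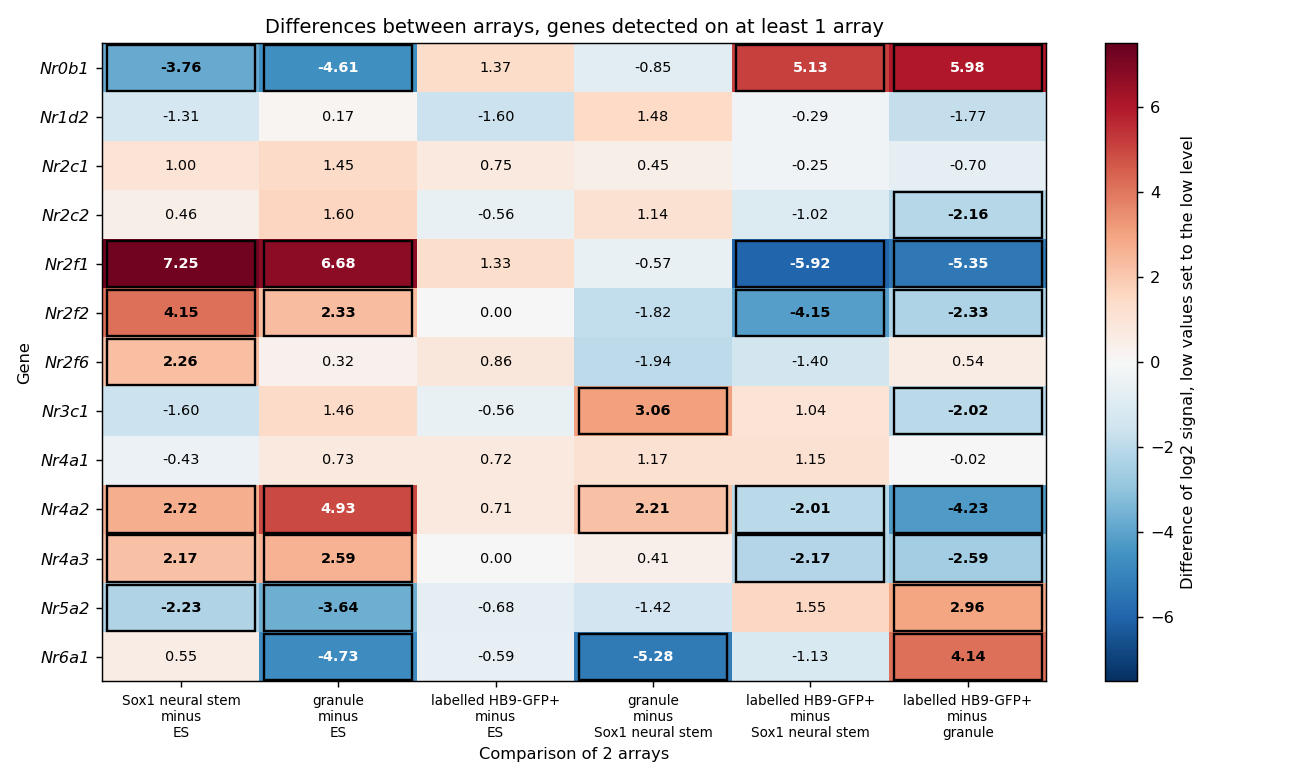
Difference of log2 signal, first array minus second, for the 13 genes detected on at least 1 array, with values under the low level set to it. Boxes and bold type mark the calls; Nr2f1 has the greatest difference, 7.25 for the Sox1 array minus the ES array, and the column for the HB9-labelled array minus the ES array has no box.

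In bulk RNA such as this, fewer cells of a type and less RNA per cell cannot be told apart. The COUP transcription factors, orphan receptors that mostly repress and that pattern neural territories, included the member with the widest difference between arrays. Nr2f1 (COUP-TFI) had a signal of 12006.9 in Sox1 cells, 8071.6 in granule cells, 197.8 on the HB9-labelled array and 21.5 in ES cells. Both neural arrays were far above the other pair. The Sox1 signal was at least 152.5-fold and the granule signal at least 102.5-fold that on the ES array.

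Nr2f1 on the HB9-labelled array was just past detection, 60.7-fold below the Sox1 array and 40.8-fold below the granule array. Fibroblast markers on these arrays had a summed signal of 16543.5 on the HB9-labelled array, 1185.8 in ES cells, 1246.3 in Sox1 cells and 4975.2 in granule cells. Their part in the Nr2f1 signal was not tested. Nr2f1 has a single probe set, so no other probe set could be set beside it.

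Nr2f2 (COUP-TFII), its close paralog, was at 1396.4 in Sox1 cells, 394.7 in granule cells, 33.6 in ES cells and 27.4 on the HB9-labelled array. It was thus detected on both neural arrays and undetected on the other pair. The Sox1 signal was at least 17.7-fold, and the granule signal at least 5.01-fold, that on either undetected array. The Sox1 signal was 3.54-fold the granule signal, short of a call.

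Nr2f2 has 6 probe sets, and 5 of them were detected on the Sox1 array. Their signals there were 1396.4, 1186.5, 1109.7, 260.1 and 231.8, and the remaining probe set stayed under detection at 80.3. On the granule array the 3 brightest read 394.7, 335.7 and 363.3, while the remaining ones were undetected there. All 6 probe sets were undetected on the ES array and on the HB9-labelled array, where the highest signal was 60.3. The pattern of the 3 brightest probe sets was therefore shared.

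Nr2f6 (EAR2), also of the COUP group, was detected everywhere. Its signal was 1558.5 in Sox1 cells, 591.5 on the HB9-labelled array, 406.4 in granule cells and 326.0 in ES cells. The Sox1 array stood above the other 3. The 4.78-fold difference from the ES array was the only call, and the second probe set, at 588.0 against 181.7, gave a log2 difference of 1.69 that fell short of it. That second probe set also had its highest signal on the Sox1 array.

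Nr2e1 (TLX), an orphan receptor that maintains neural stem cells in the brain, was undetected on every array. Its representing probe set read 37.2 in Sox1 cells, 26.4 in granule cells, 14.0 in ES cells and 5.1 on the HB9-labelled array. Its other probe set read 105.6 in Sox1 cells and at most 9.1 elsewhere. That value lay above the low level and below detection.

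The testicular receptors Nr2c1 (TR2) and Nr2c2 (TR4), orphan repressors and activators found in many cell types, were detected on all 4 arrays. Nr2c2 was at 4932.4 in granule cells, 2238.0 in Sox1 cells, 1630.8 in ES cells and 1104.0 on the HB9-labelled array. Its single call was the 4.47-fold difference between the granule array and the HB9-labelled array. A second detected probe set of Nr2c2 gave the same order, at 725.4, 370.1, 240.5 and 123.3. Another, detected on the granule array alone at 215.8, read higher in ES cells than in Sox1 cells (122.4), with 74.1 on the HB9-labelled array. Its difference between the granule and HB9-labelled arrays was short of a call.

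Nr2c1 was at 469.5 in granule cells, 343.6 in Sox1 cells, 289.2 on the HB9-labelled array and 172.2 in ES cells. No comparison of this probe set reached 4-fold. Its probe sets disagreed on the brightest array: another read 578.6 in Sox1 cells, 303.3 in granule cells, 199.5 in ES cells and 119.9 on the HB9-labelled array. By that probe set the Sox1 array was above the HB9-labelled array (the latter minus the former, -2.27 log2 units), past the call threshold. The order of the arrays and the calls for Nr2c1 therefore depended on the probe set.

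Among receptors of the ES cell network, Nr0b1 (DAX1) had the widest range. It lacks the usual DNA-binding zinc fingers and acts by binding other receptors, among them Nr5a2. Its signal was 4954.8 on the HB9-labelled array, 1917.7 in ES cells, 141.9 in Sox1 cells and 1.7 in granule cells. It was undetected on both neural arrays. The ES signal was at least 24.3-fold, and that on the HB9-labelled array at least 62.9-fold, the granule signal.

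Nr0b1 on the Sox1 array lay between the low level and detection, so no fold is given there, although both differences were calls. The 2.58-fold difference between the HB9-labelled array and the ES array was short of a call. Nr0b1 was the only member at least 4-fold above both neural arrays on both of these arrays, as 1.33% of all genes were. Pluripotency markers had a summed signal of 106167.7 in ES cells, 107188.8 on the HB9-labelled array, 22357.5 in Sox1 cells and 3808.3 in granule cells. Sox2 alone gave 16172.6 of the Sox1 sum and 3410.1 of the granule sum, against 18876.8 in ES cells. Of the 10 markers, 8 were called lower on the Sox1 array than on the ES array, and all 10 were on the granule array. The part of these markers in the Nr0b1 signal was not tested.

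Nr5a2 (LRH-1), which binds the half-site as a monomer and can activate Pou5f1, was at 983.9 in ES cells, 614.3 on the HB9-labelled array, 210.2 in Sox1 cells and 19.7 in granule cells. Of these arrays only that of granule cells was undetected. The ES signal was 4.68-fold the Sox1 signal and at least 12.5-fold the granule signal. The signal on the HB9-labelled array was at least 7.80-fold the granule signal and 2.92-fold the Sox1 signal, the latter short of a call.

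Other probe sets of Nr5a2 placed the first pair of arrays in the opposite order. A second read 904.0 on the HB9-labelled array, 710.8 in ES cells, 77.8 in Sox1 cells and 15.6 in granule cells. A further one read 378.6, 284.8, 43.7 and 22.2 in that order of arrays. By both, the HB9-labelled array was past the call threshold against the Sox1 array, at 3.52 and 2.27 log2 units. Detection of Nr5a2 on the Sox1 array thus rested on 1 of its 4 probe sets. The part of the pluripotency markers detected there in the Nr5a2 signal was not tested. Its relative Nr5a1 (SF-1), the regulator of steroid synthesis in adrenal and gonad, was undetected, at 48.9 or less.

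Nr6a1 (GCNF), a receptor that silences Pou5f1 as ES cells differentiate, was detected on every array but 1. Its signal was 3708.1 in Sox1 cells, 2538.6 in ES cells, 1690.6 on the HB9-labelled array and 95.7 in granule cells. The first 3 arrays lay within 2.19-fold of each other, and the granule array was undetected, so all 3 differences from it were calls with no fold given. A second probe set read 2218.4, 1694.9, 1137.1 and 53.3 in the same order, and the other 3 were undetected on every array.

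Against its own ES signal, Nr6a1 on the Sox1 array was 1.46-fold higher, short of a call, while Nr5a2 was below its own by 4.68-fold. Pou5f1 was at 9255.5 in ES cells, 11188.0 on the HB9-labelled array, 514.3 in Sox1 cells and 21.7 in granule cells. Nr6a1 was detected on all 3 arrays where Pou5f1 was, and the part of Nr6a1 in the Pou5f1 signal was not tested.

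The Nr4a receptors are immediate early genes that act without a classical ligand, and Nr4a2 (Nurr1) is best known for its role in dopamine neurons. Nr4a2 was at 2407.3 in granule cells, 519.4 in Sox1 cells, 128.6 on the HB9-labelled array and 58.7 in ES cells. The neural arrays were detected and the other pair was not. The granule signal was at least 30.6-fold, and the Sox1 signal at least 6.59-fold, the ES signal. The granule signal was 4.63-fold the Sox1 signal.

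The difference of Nr4a2 between the Sox1 array and the HB9-labelled array was a call by a narrow margin, at -2.01 log2 units with a threshold of 2. It was -1.78 with quantile normalization and -1.98 with centring on genes detected on all arrays, which end the call. Of the 6 probe sets, 3 were detected on the granule array, at 2407.3, 462.5 and 446.6. On the Sox1 array the last 2 of these read 148.9 and 162.0, so that 1 of them was undetected there. The remaining 3 probe sets were undetected on all 4 arrays, with a highest signal of 137.2.

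Nr4a3 (Nor1) followed the same division, at 472.6 in granule cells, 354.7 in Sox1 cells, 9.4 in ES cells and 5.9 on the HB9-labelled array. The granule signal was at least 6.00-fold, and the Sox1 signal at least 4.5-fold, either of the undetected ones. This rested on 1 of 3 probe sets. Its remaining probe sets were undetected on all arrays, at 53.5 or less.

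Nr4a1 (Nur77) did not share this division. Its signal was 965.4 in granule cells, 954.0 on the HB9-labelled array, 580.7 in ES cells and 430.1 in Sox1 cells. All 4 arrays were detected and the largest difference was 2.24-fold, so no comparison was a call. Nr4a1 has a single probe set.

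With Nr2f1 and Nr2f2, Nr4a2 and Nr4a3 made up the 4 members at least 4-fold higher on both neural arrays than on each of the others. Of all genes, 1.57% did so. On the granule array, markers of other cell types were bright: the summed signal of the astrocyte and Bergmann glia list was 20571.0, against 255.1 to 813.1 on the other 3 arrays. The sums of the Purkinje cell and interneuron list were 10097.1 against 349.3 to 778.1. Those of the oligodendrocyte list were 8241.4 against 746.5 to 1053.8, and those of the microglia and macrophage list 5485.8 against 184.4 to 327.9. The part of these cells in the members' signals on the granule array was not tested.

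**Figure D4:**
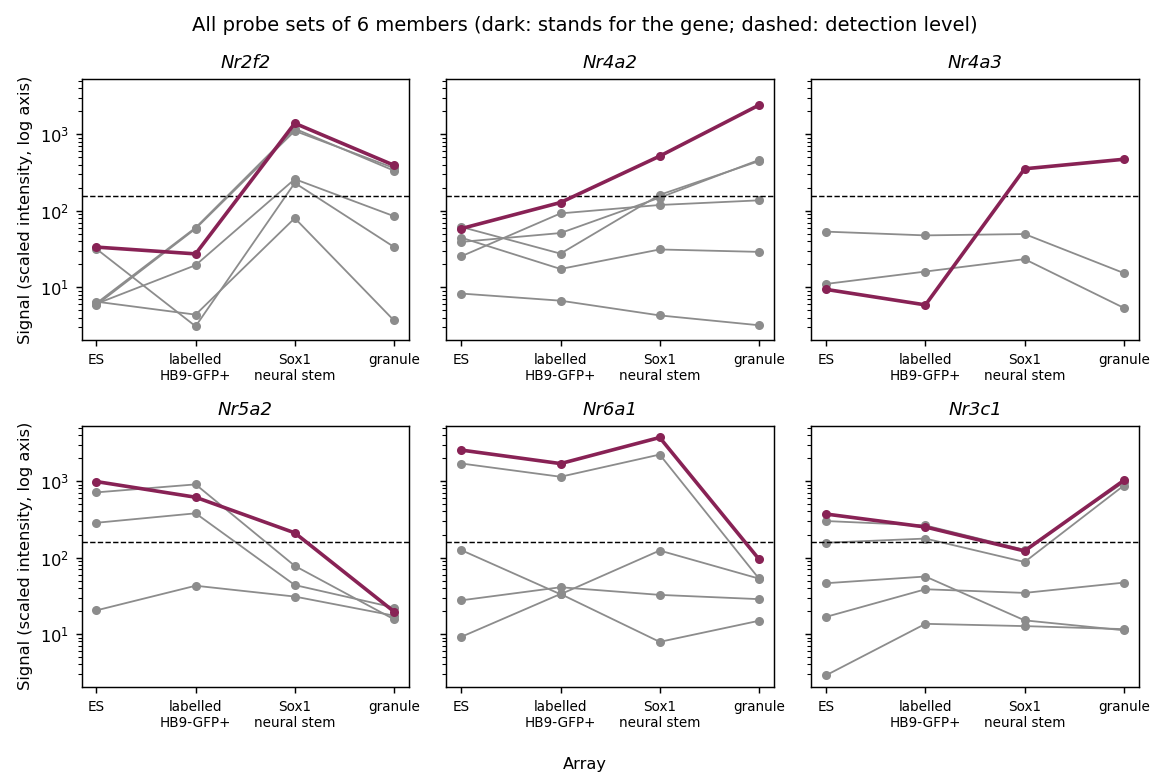
Signals of every probe set of 6 members on the 4 arrays, on a log axis, with lines joining the values of 1 probe set and the dark line the one that stands for the gene. The 3 brightest probe sets of Nr2f2 run together, 3 of 6 for Nr4a2 and 1 of 3 for Nr4a3 reach detection, and for Nr6a1 a pair of probe sets drops under the dashed detection level of 157.5 in granule cells.

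The steroid receptors were split. Nr3c1, the glucocorticoid receptor, was at 1018.3 in granule cells, 370.0 in ES cells, 250.8 on the HB9-labelled array and 121.9 in Sox1 cells. The granule array was highest and the Sox1 array undetected. The difference between that pair was a call with no fold given, and the granule signal was 4.06-fold that on the HB9-labelled array. The latter call ended with quantile normalization, at -1.74 log2 units.

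The probe sets of Nr3c1 ranked the granule and Sox1 arrays alike. A second read 960.6 in granule cells and 126.1 in Sox1 cells, and another read 871.7 and 87.4. By the last, the granule array was also past the call threshold against the ES array (156.3), at 2.48 log2 units, where the representing probe set gave 1.46. The remaining 3 of its 6 probe sets were undetected on all arrays. Nr3c2, the mineralocorticoid receptor, which binds both aldosterone and glucocorticoids, was undetected, at 78.1 in ES cells, 70.0 in granule cells, 50.5 in Sox1 cells and 18.7 on the HB9-labelled array.

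Of the heme-binding clock repressors, Nr1d2 (REV-ERB beta) was detected on all arrays and Nr1d1 (REV-ERB alpha) on none. Nr1d2 was at 2714.3 in granule cells, 2406.8 in ES cells, 972.9 in Sox1 cells and 795.4 on the HB9-labelled array. The first pair lay 1.13-fold apart and the second pair 1.22-fold apart. The largest difference, 3.41-fold between the granule array and the HB9-labelled array, was short of a call. The other probe set of Nr1d2 was undetected on every array, at 25.3 or less, so its detection rested on a single probe set. Nr1d1 was at 68.0 in ES cells and 33.9 or less on the other 3.

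The measured members of the groups that bind oxysterols, bile acids and foreign compounds were undetected on all 4 arrays. Nr1h2 (the liver X receptor beta) was not analysed here. Nr1h3 (the liver X receptor alpha) reached 78.3, Nr1h4 (the bile acid receptor FXR) 37.3, Nr1i2 (PXR) 50.0 and Nr1i3 (CAR) 6.7. Nr0b2 (SHP), which like Nr0b1 lacks a DNA-binding domain and is best known in liver, reached 54.2. In all, 9 members with 12 probe sets were detected on no array, with signals of the representing probe sets from 4.9 to 78.3. An undetected signal on these arrays does not show that a gene was silent.

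Among the 13 detected members, the granule array held the highest signal for 7 (53.8%), against 28.4% of the 11571 genes detected on at least 1 array. The Sox1 array held it for 4 (30.8%, against 20.6%), and the ES array and the HB9-labelled array for 1 each (7.69%, against 23.2% and 27.8%). These shares cover only the members that passed detection. Of the 7, Nr4a1 was 1.01-fold and Nr1d2 1.13-fold above the next array, and the brightest array of Nr2c1 differed between probe sets. Of 31 member calls over the 6 comparisons, 19 were for genes with another detected probe set. In all 19, every such probe set had the same sign, and in 9 every one also passed 4-fold. Probe sets detected on neither array compared were left out, so this count cannot show disagreement by them. When the log2 signals of all probe sets of a gene were averaged, 21 of the 31 calls were lost and 10 held.

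Nuclear receptors with other names were set beside the members. In this and the following lists a single probe set stood for each gene, and other probe sets of these genes were not compared. Of 22 measured, 9 were detected on the ES array and 6 on each of the others, while 51.3% to 52.3% of all genes were detected per array. Esrrb, an orphan receptor of the ES cell network, was at 3409.8 in ES cells, 4352.5 on the HB9-labelled array, 140.5 in Sox1 cells and 38.3 in granule cells. As for Nr0b1, both neural arrays were undetected. It was the only one of the 22 called lower on the Sox1 array than on the ES array (against 3.02% of all genes). In that comparison 0 were called higher (against 3.59%). The granule array against the ES array had 2 higher, the thyroid hormone receptor gene Thra (2593.2 against 269.4) and Esrrg (791.0 against 41.7). It had 2 lower, Esrrb and the retinoic acid receptor gene Rarg (83.2 against 605.9). The shares of all genes there were 6.83% higher and 4.99% lower. No call was made between the HB9-labelled array and the ES array, where 1.11% of all genes were higher and 0.813% lower. The median of the list was 0.00 in each comparison.

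Coregulators, the proteins that receptors recruit, had 24 of 28 detected on the ES array and on the HB9-labelled array. In Sox1 cells 26 were detected and in granule cells 25, while 51.3% to 52.3% of all genes were detected per array. Bcl11a, a zinc finger partner of the COUP factors, was higher on the granule array (815.3) than on the ES array (70.4). It was the only one of 28 in that direction, against 6.83% of all genes. Ppargc1b, a coactivator, was the only one lower (95.1 against 402.7), against 4.99% of all genes. The median log2 difference of the list between the granule and ES arrays was 0.65. Over all genes it was 0.00, and over the genes detected on either of those arrays -0.09. On the Sox1 array against the ES array 0 were higher (against 3.59% of all genes) and 1 lower (against 3.02%), with a median of 0.13. The lower one was the coactivator gene Ncoa4 (969.7 against 5129.6). Nrip1, a corepressor gene, was at 3301.9 in Sox1 cells, 1541.6 in granule cells, 904.3 in ES cells and 501.1 on the HB9-labelled array, and only the difference between the first and last was a call. Lcor, also a corepressor gene, was at 3541.4 in granule cells, 2864.3 in Sox1 cells, 934.1 in ES cells and 302.1 on the HB9-labelled array. The last was called lower than each of the first 2, by 3.55 and 3.25 log2 units. Ncoa1, a coactivator gene, was called higher on the granule array (3407.9) than on the Sox1 array (640.5).

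Chaperones of the steroid receptors, such as Fkbp4 and Hsp90aa1, had 7 of 7 measured members detected on every array and 0 calls in any comparison. By comparison, 40.6% of all genes were detected on all arrays and 19.3% were called in at least 1 comparison. Of 10 glucocorticoid receptor targets, 1 was higher on the granule array than on the Sox1 array and 1 lower (median -0.18). The shares of all genes were 3.66% and 2.09%. The higher one was Klf9, at 7933.9 against 1747.4, and the lower one Zbtb16, at 504.6 against 3241.4. Klf9 was brightest on the ES array, at 14963.8. Sgk1, a kinase gene induced by glucocorticoids, was at 8750.7 in ES cells and 12016.0 on the HB9-labelled array, against 683.5 in Sox1 cells and 2470.8 in granule cells. Mt2, a metallothionein gene, was at 10331.4 on the HB9-labelled array, against 1994.7 in ES cells, 2135.1 in Sox1 cells and 1046.0 in granule cells, and all 3 differences were calls. Pdk4, a kinase gene of glucose metabolism, was called higher in ES cells (731.6) and on the HB9-labelled array (580.9) than in Sox1 cells (43.4) or granule cells (105.3). Klf9 and Zbtb16 went in opposite directions between the arrays on which Nr3c1 was highest and lowest. The other targets were not called between that pair, and the part of Nr3c1 in any of the targets was not tested.

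Of the liver X receptors, Nr1h3 was undetected on the ES array and Nr1h2 was not analysed. Of 10 liver X receptor targets, 8 were detected on that array, where 51.8% of all genes were. On the granule array against the Sox1 array 3 were higher and 0 lower (median -0.03), against 3.66% and 2.09% of all genes. The higher ones were the cholesterol exporters Abca1 (3024.8 against 703.1) and Abcg1 (456.7 against 105.1), and Apoe (1170.0 against 87.3). On the ES array Abca1 was at 2387.5, Abcg1 at 469.2 and Apoe at 182.0. On the HB9-labelled array they were at 1170.0, 383.8 and 1689.8. Among 13 clock genes, 1 was higher on the granule array than on the ES array (against 6.83% of all genes), Per2 (514.7 against 22.8). In that comparison 0 were lower (against 4.99%), and the median was 0.00. Clock was called lower on the HB9-labelled array (242.6) than on the granule array (1286.8). Of 7 genes of steroid synthesis, 1 was lower on the Sox1 array than on the ES array, Cyp11a1 (37.8 against 557.6), against 3.02% of all genes. There 0 were higher (against 3.59%), and the median was -0.37.

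Enzymes that make or remove steroid ligands had 2 of 8 higher and 0 lower on the granule array than on the ES array. The shares of all genes were 6.83% and 4.99%, and the list median was 1.09. Hsd11b2, which inactivates glucocorticoids, was at 980.4 in granule cells, 483.2 in Sox1 cells, 108.2 in ES cells and 102.9 on the HB9-labelled array. Cyp7b1, an oxysterol hydroxylase gene, was at 1317.4 in granule cells and 183.9 in ES cells. Hsd11b1, which regenerates glucocorticoids, was at 316.9 on the HB9-labelled array and 15.1 in ES cells. It was the only one of the 8 higher on the former, against 1.11% of all genes. Cyp39a1 was called lower on the HB9-labelled array (89.8) than on the granule array (637.2), and Cyp46a1, a brain cholesterol hydroxylase gene, lower there (55.0) than on the Sox1 array (326.0).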

How the data were processed

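Mouse RNA was measured with 1 array for each of 4 kinds of cell. The deposited values were linear intensities for 45101 probe sets, from 0.1 to 43110.3. The submitters' processing notes name GCRMA, with no version, yet each array's mean after trimming 2% at each end was 500.0, so the step that made the values is uncertain and the arrays are forced to a common average. Depth does not apply, and the number of arrays limits the precision.

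Python 3.11.15 with pandas 2.3.3 was used. The platform annotation gave 1 symbol to 34945 probe sets other than controls, several to 932 and none to 9211. The 64 control probe sets were left out. Logarithms to base 2 of the deposited intensities (log2) were taken without a pseudocount. The call rule was applied to all 18193 genes. It was also run on simulated data, which checks how the rule was coded and not the error of these arrays. Promoters came from RefSeq for GRCm38.p6; the array annotation names no build, so no coordinates are given for probe sets. Every member is named with its signals, and of each other list up to 4 of the largest called differences. Pou5f1, the other pluripotency markers printed, Ncoa4, Ppargc1b, Klf9 and Hsd11b1 fall outside that rule and were chosen after their values were seen. Members and lists were chosen with earlier results of these data known. Normalization, centring, probe set choice, low level and fold were varied.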

Additional observations from a re-analysis of the deposited data

How the results depend on the processing

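Of the 31 member calls, 0 changed sign under the alternatives tried. All 31 held with the low level 1 log2 unit lower, with centring on reference genes other than Hprt, and with the probe set of the highest linear mean, an alternative chosen after seeing the data. Centring on genes detected on all arrays kept 30 and quantile normalization 29. Leaving out probe sets whose names end in _a_at, _s_at or _x_at kept 30. The call lost there was that of Nr2f6 between the Sox1 and ES arrays, at 1.69 log2 units. A fold of 8 kept 17, and averaging each gene's probe sets kept 10; the cause was not tested. Centring on reference genes moved the median of all genes by 0.40 on the granule array and by -0.17 on the HB9-labelled array, and quantile normalization moved the latter by 0.26.

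With the mean over probe sets, 2 members were higher and 1 lower for Sox1 against ES, 1 and 1 for granule against ES, 0 higher for granule against Sox1, 2 lower for HB9-GFP+ against Sox1, and 1 and 1 for HB9-GFP+ against granule. Members detected were then 5 on ES, 5 on HB9-GFP+, 6 on Sox1 and 6 on granule. With a fold of 8, 2 were higher and 1 lower for Sox1 against ES, 2 higher for granule against ES, 1 higher for granule against Sox1, and 2 lower for HB9-GFP+ against Sox1 and against granule. With a log2 threshold of 1, 4 were lower for Sox1 against ES, 7 higher for granule against ES, 5 higher and 4 lower for granule against Sox1, 2 higher and 1 lower for HB9-GFP+ against ES, and 4 higher and 7 lower for HB9-GFP+ against Sox1. The lower low level gave 1 higher for HB9-GFP+ against ES and 2 lower for granule against Sox1, and quantile normalization gave 3 lower there. Shares of all genes were not computed under these alternatives, so the counts cannot be set against genes in general. The cause was not tested for these beyond the construction of each alternative. Signals near the low level limit every fold given as a bound.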
